A study of Mus musculus with 12 samples.

Results

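Inflammasome and gasdermin genes were read by gene name from a table of dorsal skin transcripts, and all 10 were found among its 36400 genes. They are the sensors Nlrp3, Nlrc4 and Aim2, the adaptor Pycard, the caspases Casp1 and Casp4, and the gasdermins Gsdmd, Gsdma, Gsdma2 and Gsdma3. The study asked how mesenchymal stem cells (MSCs) from human umbilical cord act on atopic dermatitis-like skin that the hapten dinitrochlorobenzene (DNCB) provokes in mice. Total RNA from the dorsal skin of 12 female BALB/c mice, 6 weeks old at purchase, was sequenced, with 3 mice in each of 4 groups. Every mouse was shaved. The control group received the acetone and olive oil vehicle alone. The DNCB group was sensitised with 1% DNCB and then challenged repeatedly with 0.5% DNCB. The scMSC group had the same DNCB course plus 4 injections of 2000000 MSCs from day 13 to day 25, each as 100 μL under the dorsal skin. The scivMSC group received the same number of cells, split into 50 μL under the skin and 50 μL into the tail vein. Skin was collected on day 30. The methods describe no injection of cell-free solution, so the injected fluid and the cells cannot be told apart here.

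An inflammasome is a protein platform that assembles when a cytosolic sensor detects microbial products or cell damage. The sensor recruits the adaptor ASC, the product of Pycard, which gathers and activates caspase-1. Caspase-1 matures the cytokines interleukin-1β and interleukin-18 and cuts gasdermin D, whose released fragment forms pores in the cell membrane and can end in a lytic death called pyroptosis. Mouse caspase-11, encoded by Casp4, binds bacterial lipopolysaccharide directly and also cuts gasdermin D. Gasdermin A proteins form pores too, but are made mainly by epithelial cells, and mutations of mouse Gsdma3 are known for hair loss and sebaceous gland defects.

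The 12 libraries summed to between 63877153 and 75134001 estimated counts, and all 10 genes passed the filter, a mean over the libraries of 0.1 FPKM or more (fragments per kilobase of transcript, scaled to the mapped fragments of the library), as did 21890 genes in all. Gsdma2 passed it mainly through the MSC groups. Levels are given as FPKM, which is per length and can be compared between genes. Differences are log2 fold changes with their standard error (SE) from edgeR on the estimated counts, and a gene was called at an adjusted p under 0.05 and a change of more than 2-fold. Keratinocyte markers marked every library as skin, with a summed level of 10 suprabasal genes between 4518 and 12798 FPKM. The 3 comparisons with DNCB share its libraries, and the comparisons with control share the control libraries, so they are not independent of each other.

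Nlrp3 was higher and Gsdma3 lower in DNCB skin than in each of the other 3 groups. Against control, 2 of the 10 genes were called, beside 14.2% of all tested genes, with Nlrp3 higher (6.59% of all genes were) and Gsdma3 lower (7.57%). Against scMSC, 6 of 10 were called, beside 8.5% of all genes: Nlrp3, Pycard and Casp4 were higher in DNCB skin (3.84% of all genes), and Gsdma, Gsdma2 and Gsdma3 were lower (4.66%). Against scivMSC, 3 of 10 were called, beside 5.46% of all genes, with Nlrp3 higher (2.33%) and Gsdma2 and Gsdma3 lower (3.13%). The 10 genes had a median log2 difference of 0.55 from control, of 0.86 from scMSC and of 0.75 from scivMSC, while the medians of all tested genes were 0.02, -0.02 and -0.02. All 3 DNCB libraries lay above all 9 others for 5 of the 10 genes, Nlrp3, Nlrc4, Aim2, Pycard and Gsdmd, where 9.44% of all tested genes did so. They lay below all 9 others for 1 gene, Gsdma3, beside 4.03% of all genes. Group by group, DNCB libraries were all above those of control for 6 of the 10 genes and all below for 1, where 31.7% and 16.1% of all genes were. For scMSC the counts were 7 above and 3 below (17.1% and 16%), and for scivMSC 6 above and 3 below (16.3% and 16.4%).

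**Figure D1:**
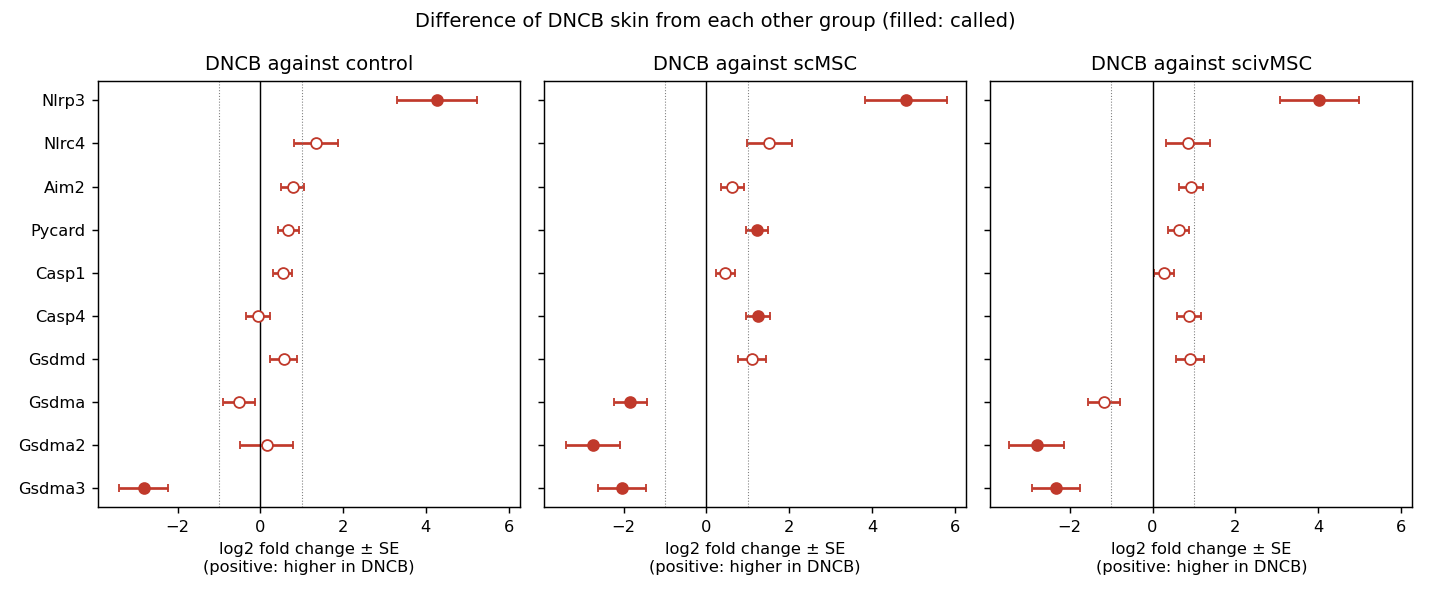
Log2 fold change of DNCB skin from control, scMSC and scivMSC skin for the 10 genes (x axis, with SE as bars and 3 libraries a group). Filled points were called and dotted lines mark a 2-fold change. Nlrp3 stands at 4.27, 4.82 and 4.02, and Gsdma3 at -2.81, -2.04 and -2.33.

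Nlrp3, the sensor that responds to potassium loss and many other danger signals, lies on the plus strand of chromosome 11 (GRCm38, 59541568 to 59566956). It moved most, so its start region is shown, as 1 of 2 windows that RefSeq gives on GRCm38.p6 (chr11:59541319-59541618, plus strand, 250 bases before to 50 after an annotated start). None of the 3 motifs reported here was in either window, so all letters are in lower case.
Nlrp3 start region: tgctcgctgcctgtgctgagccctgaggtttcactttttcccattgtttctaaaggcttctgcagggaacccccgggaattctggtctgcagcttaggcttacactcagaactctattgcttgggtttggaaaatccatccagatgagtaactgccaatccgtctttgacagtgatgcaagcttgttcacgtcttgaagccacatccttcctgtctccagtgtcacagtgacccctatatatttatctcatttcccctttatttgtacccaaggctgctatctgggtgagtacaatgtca
The motifs, searched on both strands, were an AP-1 site (TGANTCA, in 7.81% of 32851 windows of this length), a STAT site called GAS (TTCNNNGAA, 8.30%) and a GC box (GGGCGG, 35.7%). A κB and an interferon response motif were also searched and were left out after their matches, in the Casp4 and Gsdma3 windows for the first and in that of Gsdma3 for the second, had been seen, so the matches given here are not all that were found. Of the 7 genes with a window, Aim2 and Pycard held a GC box. A match is a description of letters only, and its absence here says nothing about the factors.

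Nlrp3 measured 0.804, 0.0706 and 0.617 FPKM in the 3 control libraries and 14.4, 10.2 and 8.02 FPKM in the DNCB libraries. It measured 0.451, 0.615 and 0.0467 FPKM in scMSC skin and 0.288, 1.09 and 0.613 FPKM in scivMSC skin. The DNCB libraries stood far above all 9 others, and the other 3 groups overlapped. Nlrp3 was 19.3-fold higher in DNCB than in control skin (log2 4.27 ± 0.97, SE, adjusted p = 0.00896). It was 28.2-fold higher than in scMSC skin (log2 4.82 ± 1.00, adjusted p = 0.0105) and 16.3-fold higher than in scivMSC skin (log2 4.02 ± 0.96, adjusted p = 0.0290). Leaving out 1 library moved the log2 difference from scMSC between 4.30 (without scMSC replicate 3) and 5.47 (without scMSC replicate 2). All 12 such fits passed. The scMSC and scivMSC groups differed from control by -0.54 (adjusted p = 0.722) and 0.25 (adjusted p = 0.894), with wide 95% intervals of -2.25 to 1.17 and -1.44 to 1.94. The call against scivMSC was lost when any 1 DNCB library was left out, and also without replicate 1 or 3 of scivMSC, where adjusted p ranged from 0.0586 to 0.107, and with the replicate number as a block (adjusted p = 0.0634).

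Nlrp3 is abundant in myeloid cells, and neutrophil markers moved with it. All 8 neutrophil markers were called higher in DNCB than in control and in scMSC skin, and 7 of 8 than in scivMSC skin. Their summed level was 2497 to 3495 FPKM in DNCB libraries, 120 to 208 FPKM in control, 16.0 to 66.8 FPKM in scMSC and 35.2 to 181 FPKM in scivMSC. Most of this sum was S100a8 and S100a9, with means of 916 and 1966 FPKM of a mean sum of 3066 FPKM in DNCB skin. Whether these transcripts came from neutrophils was not tested. The defining marker Ly6g was listed at 0 in all libraries of the other 3 groups, so it passed the filter through DNCB skin alone. Of 10 macrophage and monocyte markers, 0 were called against control or scivMSC and 1 against scMSC by edgeR, with 0, 4 and 4 at an unadjusted p under 0.05 against control, scMSC and scivMSC. The macrophage sum was 732 to 797 FPKM in DNCB, 207 to 804 FPKM in control, 170 to 402 FPKM in scMSC and 49.4 to 419 FPKM in scivMSC. The part of these cells in the Nlrp3 difference was not tested, and in whole skin more cells of a type and more RNA per cell cannot be told apart.

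Nlrc4, which forms inflammasomes with NAIP proteins that bind bacterial flagellin, lies on chromosome 17 (74425438 to 74459142, minus strand). It had the lowest mean of the 3 sensors in every group, and measured 0.221, 0.126 and 0.304 FPKM in control and 0.502, 0.604 and 0.761 FPKM in DNCB skin. It measured 0.306, 0.208 and 0.123 FPKM in scMSC and 0.484, 0.448 and 0.107 FPKM in scivMSC skin. All DNCB libraries were above all others, though the highest scivMSC library, at 0.484 FPKM, came close to the lowest DNCB library, at 0.502 FPKM. The differences of DNCB skin were 1.34 ± 0.54 against control (adjusted p = 0.0932), 1.52 ± 0.54 against scMSC (adjusted p = 0.0967) and 0.86 ± 0.53 against scivMSC (adjusted p = 0.381), and none was called by edgeR. DESeq2 called the first (adjusted p = 0.0479) and the second (adjusted p = 0.0310), and edgeR with only the 6 libraries compared called the first (adjusted p = 0.0480). Without scivMSC replicate 3, which had the lowest level, Nlrc4 passed against control (adjusted p = 0.0413, up to 0.263 without other libraries) and scMSC (adjusted p = 0.0356, up to 0.250). A gene on the same strand, CT033749.1, overlaps Nlrc4, so its reads may be split between both.

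Aim2, a sensor of double-stranded DNA in the cytosol, lies on chromosome 1 (173350879 to 173466040, plus strand) and overlaps Cadm3 on the other strand. Whether strand was used in counting is not given in the sources used here, so reads of the overlap are uncertain. Aim2 measured 0.836, 0.571 and 1.04 FPKM in control, 1.71, 1.55 and 1.49 FPKM in DNCB, 0.783, 0.925 and 1.32 FPKM in scMSC and 1.04, 0.775 and 0.671 FPKM in scivMSC skin. The DNCB libraries were again above all others, by a small margin. The differences of 0.78 ± 0.28 against control (adjusted p = 0.0670), 0.62 ± 0.28 against scMSC (adjusted p = 0.197) and 0.93 ± 0.28 against scivMSC (adjusted p = 0.0724) did not pass. DESeq2 passed the first (adjusted p = 0.0281) and the last (adjusted p = 0.0101). Over all settings that left out no single library, adjusted p ranged from 0.0183 to 0.135 and from 0.0101 to 0.125.

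Pycard, the adaptor that links sensors to caspase-1, lies on chromosome 7 (127989708 to 127993867, minus strand) and overlaps Gm45205 on the other strand. It measured 4.35, 8.03 and 8.38 FPKM in control and 12.8, 14.0 and 10.6 FPKM in DNCB skin. It measured 5.27, 6.15 and 4.24 FPKM in scMSC and 7.13, 10.2 and 6.81 FPKM in scivMSC skin. All DNCB libraries were above all others, and all scMSC libraries were below all scivMSC libraries, which 5.16% of tested genes showed. Pycard was 2.34-fold higher in DNCB than in scMSC skin (log2 1.22 ± 0.26, adjusted p = 0.0115), a call kept when any library was left out. Against control the difference was 0.67 ± 0.26 (adjusted p = 0.0786) and against scivMSC 0.63 ± 0.25 (adjusted p = 0.165). Against control it passed with library-size scaling (adjusted p = 0.0315), with limma on log2(FPKM + 0.1) (adjusted p = 0.0251) and with the replicate block (adjusted p = 0.0438), always below 2-fold, and the settings ranged from 0.0227 to 0.139. With library-size scaling the median log2 difference of all tested genes was itself 0.20 in this comparison, beside 0.02 in the main fit. Between the 2 MSC routes, scMSC differed from scivMSC by -0.59 ± 0.25 (unadjusted p = 0.0405, adjusted p = 0.658), which did not pass. Of the 10 genes 0 were called between the routes by edgeR, beside 0.00457% of all genes, or by DESeq2, beside 0.525%, and Pycard was the 1 gene with an unadjusted p under 0.05 in edgeR.

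Casp1 and Casp4 are neighbours on the plus strand of chromosome 9 (5298508 to 5307290 and 5308828 to 5336783), 1537 bases apart, and their levels followed different orders over the groups. Casp1 measured 4.08, 5.58 and 7.05 FPKM in control, 9.46, 9.38 and 8.62 FPKM in DNCB, 8.26, 6.62 and 4.87 FPKM in scMSC and 8.58, 8.68 and 5.43 FPKM in scivMSC skin. DNCB libraries were above all control and scMSC libraries but overlapped scivMSC. The differences of DNCB skin were 0.54 ± 0.23 against control (adjusted p = 0.115), 0.45 ± 0.23 against scMSC (adjusted p = 0.256) and 0.28 ± 0.23 against scivMSC (adjusted p = 0.540). Their approximate 95% intervals were 0.09 to 0.99, -0.0017 to 0.90 and -0.18 to 0.73. The upper end of 0.99 lies just under a 2-fold change, a log2 of 1. As these intervals are somewhat narrower than the test itself would give, a 2-fold change from control is not excluded. The difference from control passed by limma on log2(FPKM + 0.1) (adjusted p = 0.0464) and on log2(FPKM + 1) (adjusted p = 0.0457).

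Casp4 measured 3.10, 2.38 and 3.22 FPKM in control and 3.25, 3.03 and 3.13 FPKM in DNCB skin, which overlapped. It measured 1.78, 1.44 and 0.673 FPKM in scMSC and 1.84, 1.70 and 1.51 FPKM in scivMSC skin. All 6 MSC libraries were below all 6 others, as 0.745% of all genes were. DNCB differed from control by -0.07 ± 0.29 (adjusted p = 0.901, 95% interval -0.63 to 0.50), a sign that turned with library-size scaling (0.11, where the median of all genes was 0.20) and with limma (0.12). It was 2.36-fold higher in DNCB than in scMSC skin (log2 1.24 ± 0.29, adjusted p = 0.0193) and 2.47-fold higher in control than in scMSC skin (log2 -1.30 ± 0.29 for scMSC against control, adjusted p = 0.0122). In scMSC against control 3 of the 10 genes were called, beside 9.32% of all genes. The scivMSC group was lower than DNCB by 0.89 ± 0.29 (adjusted p = 0.0914) and differed from control by -0.95 ± 0.29 (adjusted p = 0.0546), which did not pass in edgeR. Both passed in DESeq2 (adjusted p = 0.0237 and 0.00849) and with only the 6 libraries compared (0.0261 and 0.0453), and that against control also with a mean of at least 1 FPKM (0.0389) and with counts divided by 4 (0.0481). The call of DNCB against scMSC was lost without DNCB replicate 1, 2 or 3 (adjusted p between 0.0525 and 0.0592) and with only the 6 libraries compared (0.0731), as was that of scMSC against control in the latter (0.0719). Without scMSC replicate 3 both fell just below 2-fold, at 0.92 and -0.99. Without that replicate, the lowest library, both scivMSC differences passed (adjusted p = 0.0132 against DNCB and 0.00807 against control), and without scMSC replicate 1 that against control did (adjusted p = 0.0448), each with a change below 2-fold.

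**Figure D2:**
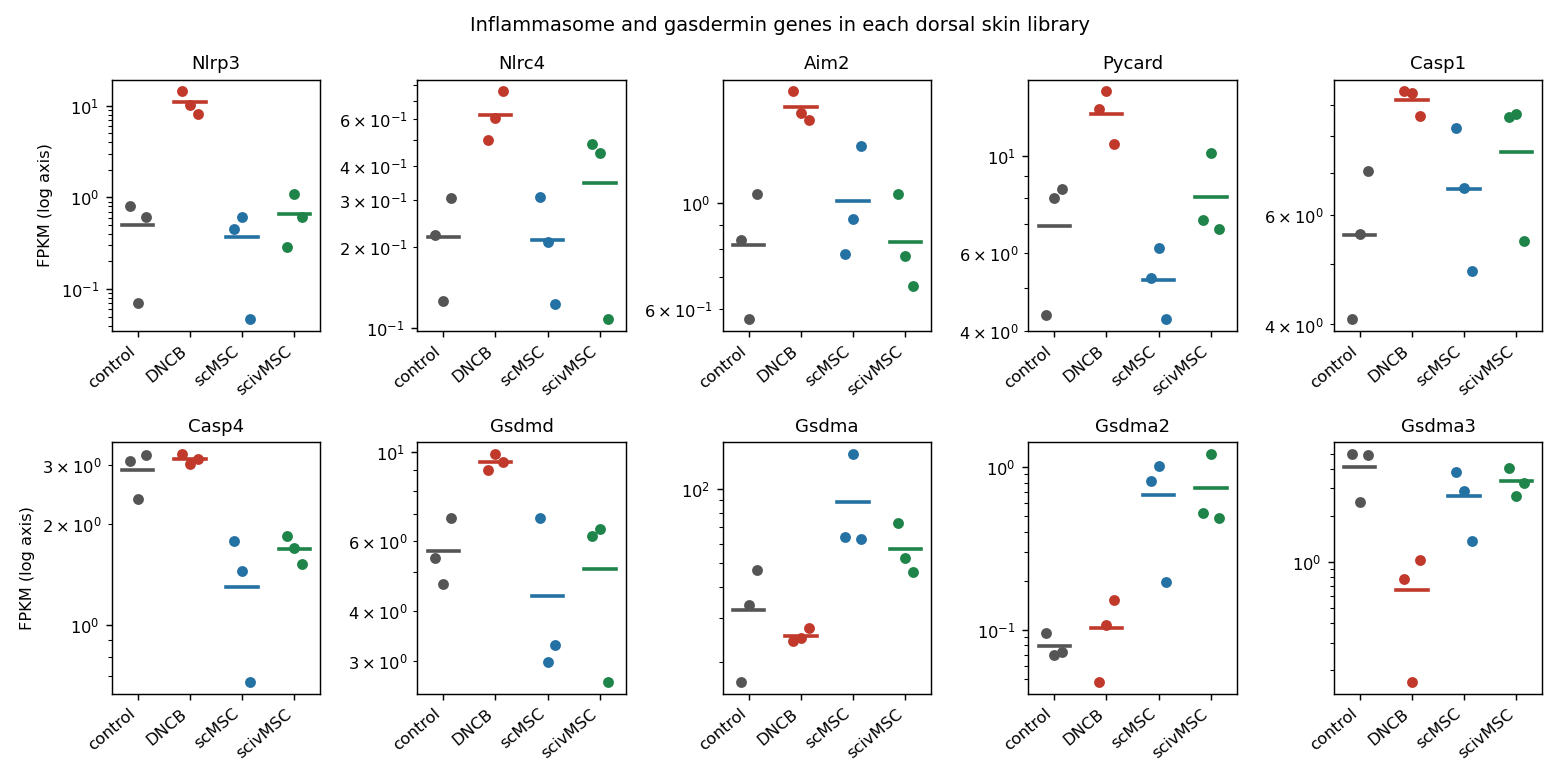
Level of the 10 genes in each of the 12 libraries (FPKM, log axis, whose range differs between panels), with points for libraries and lines for the mean of 3. DNCB points are above all others for Nlrp3, Nlrc4, Aim2, Pycard and Gsdmd and below all others for Gsdma3, and both MSC groups are below control and DNCB for Casp4.

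Gsdmd, the pore-forming substrate of caspase-1 and caspase-11, lies on chromosome 15 (75862327 to 75867408, plus strand). It measured 5.44, 4.68 and 6.84 FPKM in control and 9.03, 9.88 and 9.44 FPKM in DNCB skin. It measured 6.84, 2.99 and 3.29 FPKM in scMSC and 6.18, 6.43 and 2.66 FPKM in scivMSC skin. All DNCB libraries were above all others, and both MSC groups spread more widely than DNCB. The differences of DNCB skin were 0.56 ± 0.33 against control (adjusted p = 0.251), 1.10 ± 0.34 against scMSC (adjusted p = 0.0569) and 0.90 ± 0.34 against scivMSC (adjusted p = 0.134), and none passed. Without scMSC replicate 1, whose level was that of a control library, the difference from scMSC was 1.53 (adjusted p = 0.0124), and without scivMSC replicate 3 it was 1.11 (adjusted p = 0.0227). DESeq2 also passed the difference from scMSC (adjusted p = 0.0121). So did a mean of at least 1 FPKM (0.0479), limma on log2(FPKM + 1) (0.0461) and counts divided by 4 (0.0472). The other settings that left out no single library did not pass, with adjusted p up to 0.0824. The difference from control passed with only the 6 libraries compared (adjusted p = 0.0429).

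The gasdermin A genes are neighbours on the plus strand of chromosome 11, in the order Gsdma3 (98626360 to 98638226), Gsdma2 (98646759 to 98657964) and Gsdma (98664351 to 98677708), with gaps of 8532 and 6386 bases. They are near copies, so the first 120 coding bases of each (GENCODE M21) are shown to let a reader see how few letters tell them apart. Capitals mark differences from Gsdma3, 7 in Gsdma2 and 8 in Gsdma.
Gsdma3: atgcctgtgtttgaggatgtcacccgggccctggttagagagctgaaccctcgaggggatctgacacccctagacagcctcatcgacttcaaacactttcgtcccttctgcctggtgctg
Gsdma2: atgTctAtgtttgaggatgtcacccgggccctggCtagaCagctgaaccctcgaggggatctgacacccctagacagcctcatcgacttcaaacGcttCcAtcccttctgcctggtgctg
Gsdma: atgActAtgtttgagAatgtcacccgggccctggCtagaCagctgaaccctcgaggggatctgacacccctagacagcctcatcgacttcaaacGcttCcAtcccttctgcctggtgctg
Over the whole coding sequence Gsdma matched Gsdma2 in 90.9% and Gsdma3 in 89.8% of aligned bases, with identical runs of up to 147 and 78 bases, while Gsdma and Gsdmd matched in 59.9%. Of all 50-base words in the exons of these genes, 8.26% of those of Gsdma, 5.10% of those of Gsdma2 and 5.71% of those of Gsdma3 also occurred in another gene of the trio. Values of the low member Gsdma2 are therefore uncertain beside the high member Gsdma.

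Gsdma was the highest of the 10 genes in every group. It measured 16.6, 33.9 and 47.0 FPKM in control and 24.3, 24.9 and 27.3 FPKM in DNCB skin, which overlapped. It measured 63.6, 138 and 62.7 FPKM in scMSC and 73.0, 52.8 and 46.2 FPKM in scivMSC skin. DNCB libraries were below all 6 MSC libraries. Gsdma was 3.57-fold lower in DNCB than in scMSC skin (log2 -1.84 ± 0.40, adjusted p = 0.0128) and 2.25-fold lower than in scivMSC skin, which did not pass in edgeR (log2 -1.17 ± 0.39, adjusted p = 0.0955). DNCB differed from control by -0.52 ± 0.39 (adjusted p = 0.366). The scMSC group was above control by 1.32 ± 0.39 (adjusted p = 0.0390), and the scivMSC group by 0.65 ± 0.39 (adjusted p = 0.312). The scMSC call against control rested on single libraries. It was lost without scMSC replicate 2, the highest library (log2 0.71, adjusted p = 0.199), without control replicate 1 (0.97, adjusted p = 0.128) or 2 (adjusted p = 0.0958), and without any DNCB library or scivMSC replicate 2 or 3 (adjusted p between 0.0506 and 0.0563). It was also lost with no filter on low values (adjusted p = 0.0544), with only the 6 libraries compared (0.126) and with the replicate block (0.0624). The call between DNCB and scMSC was lost without DNCB replicate 1 (adjusted p = 0.0523) or 2 (adjusted p = 0.0512), and the difference from scivMSC was called without scMSC replicate 2 (adjusted p = 0.0428), by DESeq2 (0.0309) and with only the 6 libraries compared (0.0182).

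Gsdma2 was near the detection limit outside the MSC groups, with means of 0.0791 FPKM in control and 0.102 FPKM in DNCB skin. It therefore passed the filter of 0.1 FPKM mainly through the MSC groups, in which it was then called higher. Its 4 calls, which enter the counts of called genes, are no independent support. It measured 0.0952, 0.0697 and 0.0725 FPKM in control and 0.0477, 0.107 and 0.153 FPKM in DNCB skin, from 12 to 39 estimated counts. Judged from the values, 1 sequenced fragment was taken as about 4 counts. It measured 0.824, 1.01 and 0.197 FPKM in scMSC and 0.524, 1.21 and 0.485 FPKM in scivMSC skin. All 6 MSC libraries were above all 6 others, as 4.24% of all genes were. Gsdma2 was 6.64-fold lower in DNCB than in scMSC skin (log2 -2.73 ± 0.65, adjusted p = 0.0204) and 6.97-fold lower than in scivMSC skin (log2 -2.80 ± 0.66, adjusted p = 0.0274). Against control it was 7.37-fold higher in scMSC (log2 2.88 ± 0.66, adjusted p = 0.0135) and 7.75-fold higher in scivMSC (log2 2.95 ± 0.66, adjusted p = 0.0169), the latter the 1 of the 10 genes called in scivMSC against control, beside 6.85% of all genes. DNCB differed from control by 0.15 ± 0.64 (adjusted p = 0.898, 95% interval -1.10 to 1.41). The call against scMSC was lost without DNCB replicate 1 or 2 or scMSC replicate 2 (adjusted p between 0.0708 and 0.0774) and with only the 6 libraries compared (0.0625), and that against scivMSC without any DNCB or scivMSC library (0.0507 to 0.0974) and with the replicate block (0.0563). By limma on log2(FPKM + 1), which shrinks low genes, none of the 4 Gsdma2 calls reached 2-fold. The scMSC call against control was lost without control replicate 2 (0.0510) or scMSC replicate 2 (0.0565), and the scivMSC call against control without any control library or scivMSC replicate 2 (0.0535 to 0.0629).

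Gsdma3 was the 1 gene of the trio called between DNCB and control. It measured 5.02, 2.45 and 4.94 FPKM in control and 0.774, 0.167 and 1.03 FPKM in DNCB skin. It measured 3.82, 2.90 and 1.36 FPKM in scMSC and 4.04, 2.68 and 3.26 FPKM in scivMSC skin. All DNCB libraries were below all 9 others, and the other 3 groups overlapped. Gsdma3 was 7.04-fold lower in DNCB than in control skin (log2 -2.81 ± 0.59, adjusted p = 0.00629), a call kept when any library was left out. It was 4.12-fold lower than in scMSC skin (log2 -2.04 ± 0.58, adjusted p = 0.0415) and 5.04-fold lower than in scivMSC skin (log2 -2.33 ± 0.58, adjusted p = 0.0345). The scMSC and scivMSC groups differed from control by -0.77 ± 0.55 (adjusted p = 0.376) and -0.48 ± 0.55 (adjusted p = 0.635). The call against scMSC was lost in 9 of 12 fits that left out 1 library, all but those without control replicate 2, DNCB replicate 3 or scMSC replicate 3 (adjusted p between 0.0519 and 0.108). The call against scivMSC was lost without any DNCB library or scivMSC replicate 1 or 3 (adjusted p between 0.0523 and 0.101). With only the 6 libraries compared both were lost (0.116 against scMSC and 0.0705 against scivMSC).

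Gsdma held most of the gasdermin A transcripts in each group, and differences in the shares were not tested. Gsdma made up 86.6% ± 8.94 (SD, n = 3) of the summed FPKM of the trio in control skin. Its share was 97.2% ± 1.58 in DNCB skin, and with MSCs it was 96.0% ± 2.44 (scMSC) and 93.2% ± 0.813 (scivMSC). Gsdma3 made up 13.1% ± 8.79 in control and 2.45% ± 1.58 in DNCB skin, and its lowest control share, 6.74%, was above its highest DNCB share, 3.63%. Gsdma2 never passed 2.13% of the sum in a library. When the counts of the trio were summed and tested as 1 gene, DNCB differed from control by -0.60 (adjusted p = 0.263) in place of the -2.81 of Gsdma3 alone.

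Sebaceous gland markers were lowest in DNCB skin, as Gsdma3 was, and hair markers were highest in the MSC groups, as Gsdma2 and, by mean, Gsdma were. Neither list moved with the whole trio. Against control, Gsdma (-0.52, adjusted p = 0.366) and Gsdma2 (0.15, adjusted p = 0.898) did not pass in DNCB skin by edgeR. All 10 sebaceous gland markers were called lower in DNCB than in control skin, and 9 of 10 than in scMSC and in scivMSC skin. Their summed level was 86.6 to 117 FPKM in DNCB libraries, 618 to 748 FPKM in control, 366 to 638 FPKM in scMSC and 373 to 887 FPKM in scivMSC, and the group means fell in the same order as those of Gsdma3. Of 12 hair shaft and inner root sheath markers, 12 were called higher in scMSC and 8 in scivMSC than in control skin. Their sum was 6962 to 19738 FPKM in scMSC and 2606 to 6387 FPKM in scivMSC, against 5.81 to 337 FPKM in control and 307 to 957 FPKM in DNCB, and Gsdma2 split the groups likewise. Gsdma libraries of scivMSC overlapped control. Its mean was higher in scMSC (88.2 FPKM) than in scivMSC (57.3 FPKM), as the hair mean was (12220 and 4192 FPKM), while that of Gsdma2 was not (0.677 and 0.738 FPKM). Between control and DNCB skin, Gsdma2 and not Gsdma had the order of the hair mean. The part of gland and hair cells in these differences was not tested.

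**Figure D3:**
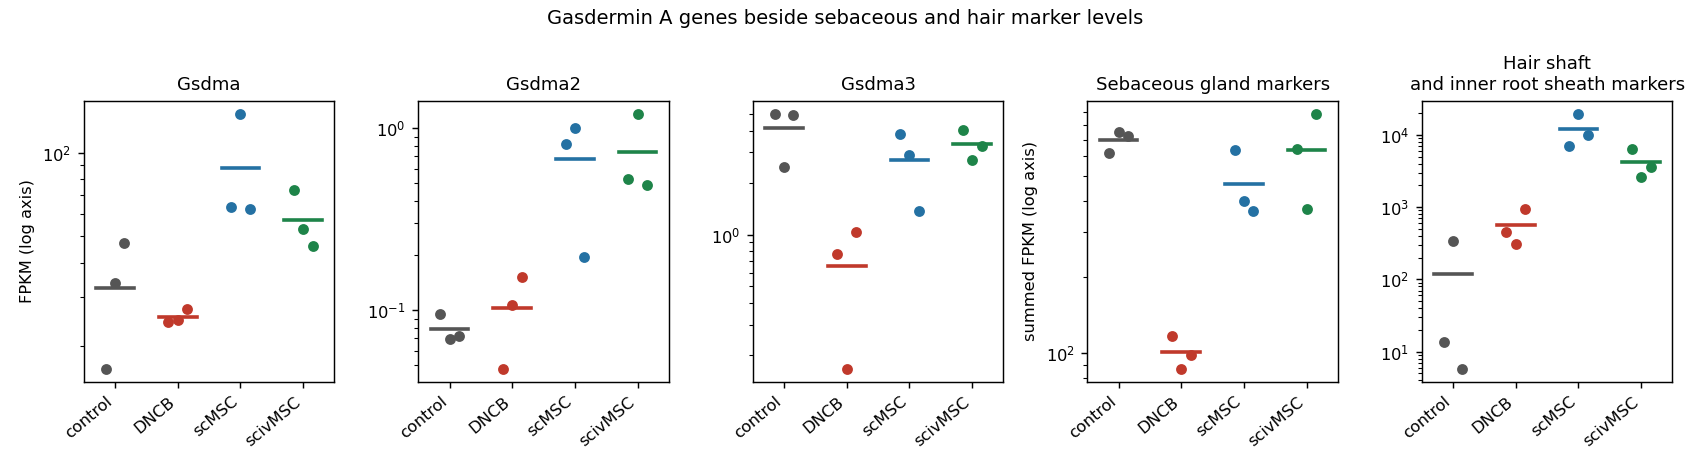
Level of Gsdma, Gsdma2 and Gsdma3 (FPKM, log axes) beside the summed FPKM of 10 sebaceous gland and 12 hair markers (log axes) in each library, with lines for the mean of 3. Gsdma3 and the sebaceous sum are lowest in all 3 DNCB libraries, and Gsdma2 and the hair sum are highest in the 6 MSC libraries.

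For 8 of the 10 genes the spread within a group, as SD over mean, was smallest in DNCB skin. The share of all tested genes that did so was not computed, so this is not shown to be particular to the 10. The macrophage sum also ranged less in DNCB (732 to 797 FPKM) than in control skin (207 to 804 FPKM). Gsdma3 instead varied most there (67.6%), and Gsdma2 varied least in control skin (17.6%, against 51.6% in DNCB). The SD was 10.5% of the mean for the median gene in DNCB and 30.6% in control skin, and 44.9% and 24.4% in the scMSC and scivMSC groups. By mean level, the order in control was Gsdma (32.5 ± 15.2 FPKM, SD, n = 3), Pycard (6.92 ± 2.23), Gsdmd (5.65 ± 1.09), Casp1 (5.57 ± 1.49), Gsdma3 (4.14 ± 1.46), Casp4 (2.90 ± 0.456), Aim2 (0.817 ± 0.237), Nlrp3 (0.497 ± 0.381), Nlrc4 (0.217 ± 0.0892) and Gsdma2 (0.0791 ± 0.0139). Neighbours from Pycard to Casp4 and from Aim2 to Nlrc4 overlapped between libraries. In DNCB skin Nlrp3 (10.9 ± 3.23 FPKM) stood behind Gsdma (25.5 ± 1.55) and Pycard (12.5 ± 1.72) and ahead of Gsdmd (9.45 ± 0.427) and Casp1 (9.15 ± 0.463), with which it overlapped. In both MSC groups it was back among the low genes, ninth of 10.

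By the likeness of their profile, measured as the root mean square difference of centred log2(FPKM + 0.1) over the 12 libraries among 14385 genes averaging 1 FPKM or more, the genes nearest to Nlrp3 were Trem1 (0.451), Trem3 (0.466) and Plaur (0.486). Trem1 was also on the neutrophil list. Nearest to Gsdmd were Glb1 (0.140), Hexa (0.162) and Scamp5 (0.166), of which Glb1 and Hexa encode lysosomal enzymes. Nearest to Casp1 were Plek2 (0.0803), Numbl (0.107) and Tmem123 (0.123), and nearest to Gsdma were Otub2 (0.185), Lypd5 (0.215) and Pard6b (0.220). These are descriptions over 12 libraries that share 4 groups.

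Among the other sensors, 8 of 10 listed genes were tested. Against control 2 were called higher and 1 lower in DNCB skin, beside 6.59% and 7.57% of all tested genes. Against scMSC 3 were called higher (3.84%), and against scivMSC 1 higher and 1 lower (2.33% and 3.13%). By edgeR 37.5%, 62.5% and 62.5% of the 8 had an unadjusted p under 0.05 in the 3 comparisons. The shares of all genes were 37.1%, 25.4% and 22.7%, so against control the list was near that of all genes. Mefv, which encodes the sensor pyrin, was 4.28 ± 0.817 FPKM in DNCB and 0.195 ± 0.217 FPKM in control skin (log2 4.31 ± 1.42, adjusted p = 0.0468), and it was higher than in scMSC skin (5.13 ± 1.48, adjusted p = 0.0449) but did not pass against scivMSC (4.19 ± 1.41, adjusted p = 0.0982). Nlrp12, at 0.418 ± 0.119 FPKM in DNCB skin, was higher than in control (3.90 ± 0.84, adjusted p = 0.00703), scMSC (3.28 ± 0.81, adjusted p = 0.0236) and scivMSC (3.00 ± 0.80, adjusted p = 0.0440). Its means in control, scMSC and scivMSC skin were 0.0230, 0.0431 and 0.0503 FPKM, each under the filter of 0.1 FPKM. Nlrp12 was thus tested only because of its DNCB level, and its calls, which enter the counts above, are no independent support. Nlrp1b was called against scMSC alone (2.11 ± 0.61, adjusted p = 0.0458), and the test of whether the comparisons differ was not run. Nlrp10 was 4.85 ± 0.648 FPKM in DNCB and 15.2 ± 7.70 FPKM in control skin (-1.82 ± 0.34, adjusted p = 0.00384), and it was also lower than in scivMSC skin (-1.67 ± 0.34, adjusted p = 0.0174). Its difference from scMSC skin, -1.11 ± 0.34, did not pass (adjusted p = 0.0558).

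These shifts changed which sensor led. Over 12 sensor genes in the table, Nlrp10 held 83.2% ± 6.15 of the summed FPKM in control, 78.8% ± 3.95 in scMSC and 79.4% ± 5.35 in scivMSC, and led in all 9 of those libraries. In DNCB skin it held 19.1% ± 0.663, and Nlrp3 led in all 3 libraries with 42.4% ± 8.38, where it held 3.13% ± 3.24 in control. The gasdermins changed leader as well. Over 9 gasdermin genes, Gsdma held 66.2% ± 8.96 in control, 86.8% ± 7.27 in scMSC and 71.7% ± 8.90 in scivMSC and led in all 9 libraries, while in DNCB skin Gsdmc led in all 3 with 44.9% ± 5.96, ahead of Gsdma with 35.7% ± 3.19. Gsdmd held 12.9% ± 4.77 in control and 13.3% ± 1.56 in DNCB, and 5.05% ± 3.25 and 6.16% ± 1.66 in scMSC and scivMSC skin.

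**Figure D4:**
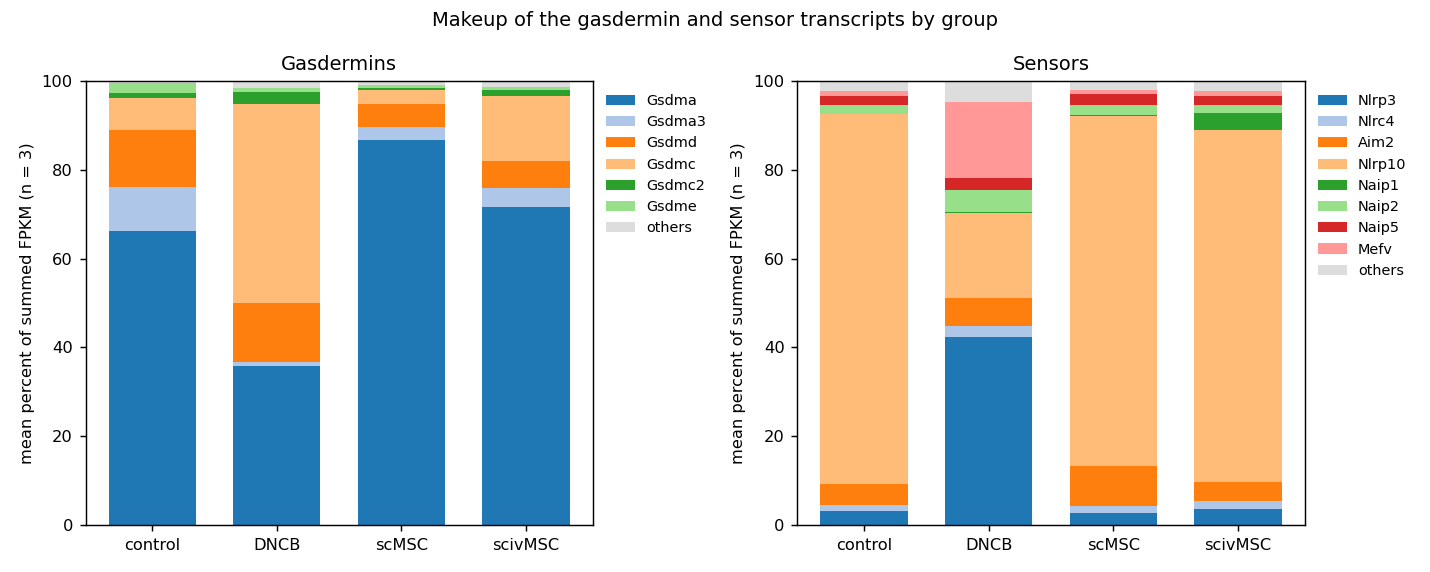
Mean percent of the summed FPKM of 9 gasdermin genes and of 12 sensor genes held by each gene (stacked bars, 3 libraries a group; genes under 2% in every group are pooled as others). Gsdmc and Nlrp3 lead in DNCB, with 44.9% and 42.4%, and Gsdma and Nlrp10 in the other 3 groups.

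Of the other gasdermins, 4 of 6 were tested. In DNCB skin 1 was called higher than in control, 2 than in scMSC and 0 than in scivMSC skin. The shares of all genes were 6.59%, 3.84% and 2.33%. Another 1 of the 4 passed as lower than in control, by less than 2-fold. In edgeR 4, 3 and 1 of the 4 had an unadjusted p under 0.05 against control, scMSC and scivMSC. These were 100%, 75% and 25%, beside 37.1%, 25.4% and 22.7% of all tested genes. Gsdmc, a gasdermin of epithelia, was 32.3 ± 6.37 FPKM in DNCB and 3.51 ± 2.04 FPKM in control skin (log2 3.01 ± 0.55, adjusted p = 0.00316). It was 2.97 ± 1.13 FPKM in scMSC skin (3.42 ± 0.56, adjusted p = 0.00387) and 11.7 ± 7.79 FPKM in scivMSC skin (1.48 ± 0.52, adjusted p = 0.112). Its near copy Gsdmc2 was called against scMSC (2.25 ± 0.58, adjusted p = 0.0289), and reads of these copies may be split. Stress keratinocyte markers moved with Gsdmc: 5 of 5 were called higher in DNCB than in control, 4 of 5 than in scMSC and 0 of 5 than in scivMSC skin, where 4 of 5 had an unadjusted p under 0.05. Their summed level was 7484 to 9246 FPKM in DNCB, 505 to 586 FPKM in control, 700 to 1478 FPKM in scMSC and 1180 to 4819 FPKM in scivMSC, and their part was not tested.

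The cytokine substrates of caspase-1 split. Il1b was 162 ± 55.9 FPKM in DNCB and 3.88 ± 2.85 FPKM in control skin (log2 5.21 ± 1.14, adjusted p = 0.00757), and it was higher than in scMSC (5.44 ± 1.16, adjusted p = 0.0119) and scivMSC skin (4.67 ± 1.11, adjusted p = 0.0292). Il18 was 12.0 ± 2.05 FPKM in DNCB and 25.8 ± 11.6 FPKM in control skin (-1.27 ± 0.39, adjusted p = 0.0351), and its differences from scMSC (-0.53 ± 0.39, adjusted p = 0.451) and scivMSC (-0.99 ± 0.39, adjusted p = 0.153) did not pass.

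Of 22 regulators and partner genes of cell death, all were tested by edgeR, with 0 called lower. In DNCB skin 4, 4 and 4 were called higher than in control, scMSC and scivMSC skin, beside 6.59%, 3.84% and 2.33% of all genes. In either direction 10, 14 and 11 of the 22 had an unadjusted p under 0.05. These were 45.5%, 63.6% and 50.0%, beside 37.1%, 25.4% and 22.7% of all tested genes. Ripk3 and Mlkl, the kinase and the pore-forming effector of necroptosis, were called in all 3 comparisons. Ripk3 was 10.2 ± 1.07 FPKM in DNCB and 2.05 ± 0.163 FPKM in control skin (2.12 ± 0.22, adjusted p = 0.000489), and Mlkl 4.33 ± 0.531 and 1.23 ± 0.315 FPKM (1.63 ± 0.39, adjusted p = 0.0121). Tlr2, a receptor for bacterial lipoproteins, was also called in all 3, by 2.03 ± 0.27, 2.97 ± 0.28 and 2.66 ± 0.28. Tlr4, the lipopolysaccharide receptor, was called against control (2.08 ± 0.68, adjusted p = 0.0451). Serpinb1a, an inhibitor of neutrophil proteases, differed from control by 0.03 ± 0.30 (adjusted p = 0.955) and was called against scMSC (1.50 ± 0.31, adjusted p = 0.0102) and scivMSC (1.24 ± 0.31, adjusted p = 0.0332).

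**Figure D5:**
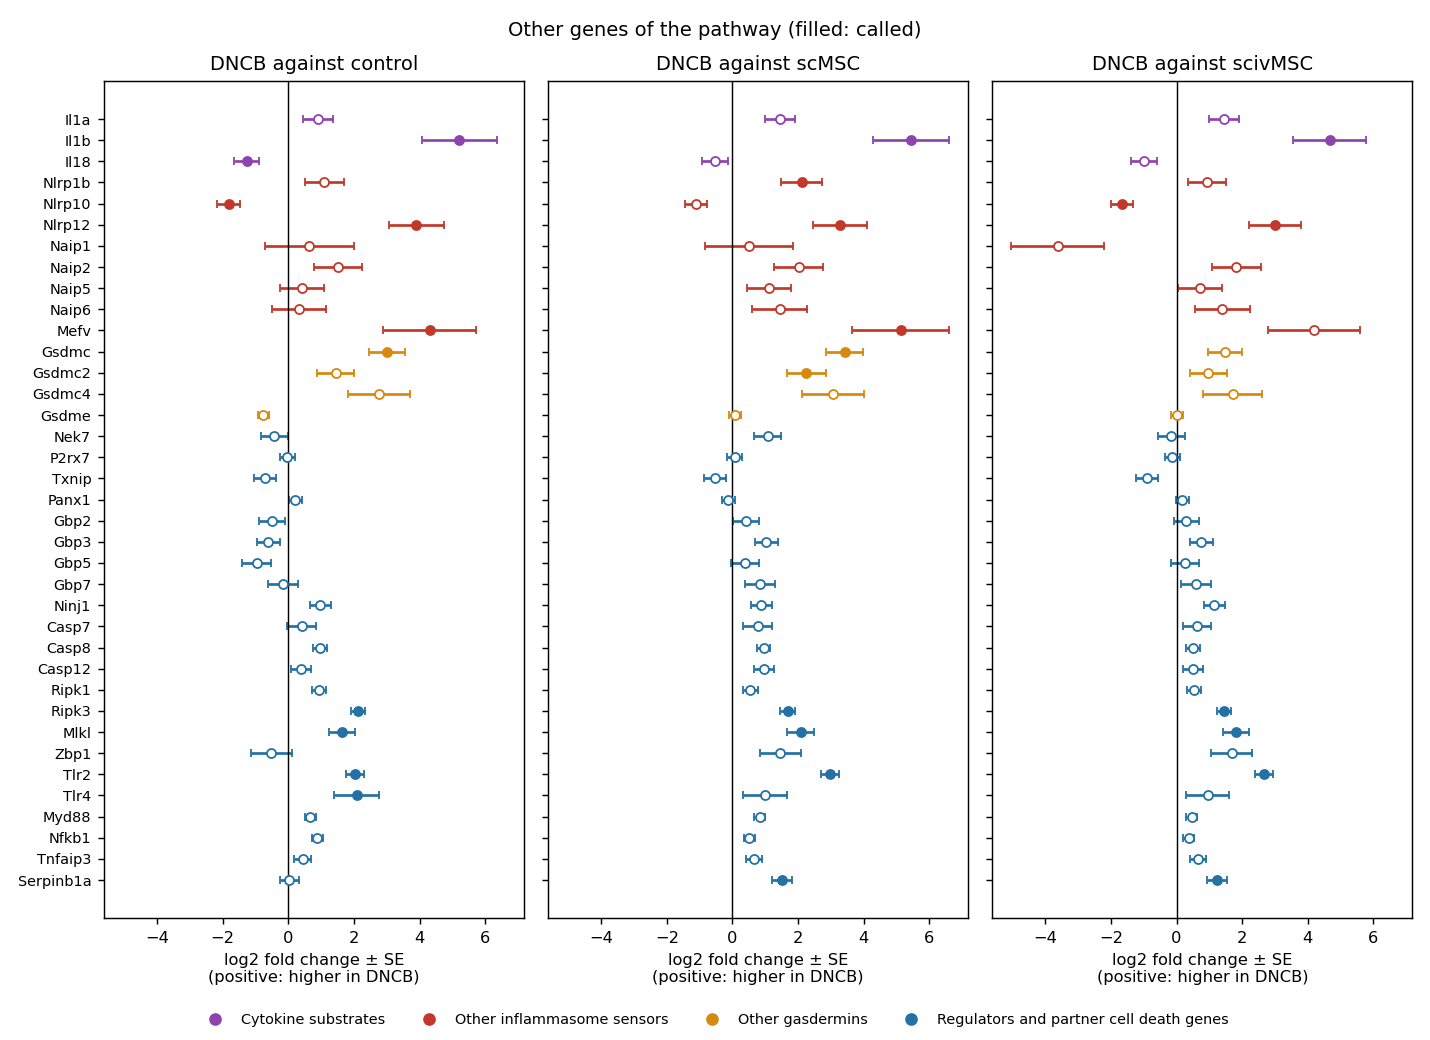
Log2 fold change of DNCB skin from each other group for the tested cytokine substrates, other sensors, other gasdermins and regulators (x axis, with SE as bars and 3 libraries a group). Filled points were called. Il1b lies furthest to the right, at 5.21, 5.44 and 4.67, and Nlrp10 stands at -1.82, -1.11 and -1.67.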

How the data were processed

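Total RNA of dorsal skin from 12 mice was sequenced, and the authors deposited 1 table of FPKM values and estimated counts per gene and library. The submitters' processing notes name Bowtie 0.12.2, HISAT2 2.0 and StringTie 1.3.0 and a mouse build mm8, but 32007 of the 36400 genes have the exact position of GENCODE M21 (GRCm38), so positions are given on GRCm38. The deposited estimated counts were rounded and fitted with edgeR 4.0.16 (R 4.3.3, quasi-likelihood test, TMM, all 12 libraries in 1 model of 4 groups). Benjamini-Hochberg adjustment ran over 21890 genes. About 4 counts were taken to make 1 fragment. This was judged from the values, as 38.9% to 41.2% of counts from 1 to 18 in a library were multiples of 4. Intervals are approximate 95% intervals, from the normal curve and the SE of this fit. They are somewhat narrower than the quasi-likelihood test itself would give. On simulated data 200 genes, drawn from those with higher counts, were changed 4-fold between DNCB and control. Of these 73.0% were called among 21890 genes, and 9 unchanged genes were called too. Smaller changes, and changes of low genes, were not simulated, so the rate does not describe them. Alternatives used DESeq2 1.42.0 and limma 3.58.1. Exact permutation of 3 against 3 libraries cannot go below p = 0.10 and was not used.

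The 10 genes, pathway lists and marker lists were chosen with earlier results of these data known. Named beside the 10 genes are Il1b, Il18, at most 6 called genes per pathway list by mean FPKM, and the 3 nearest profiles for at most 4 of the 10 genes. Depth was 63877153 to 75134001 counts, and 3 fragments (12 counts on the inferred scale) were taken as the detection floor. Of the 10 listed other sensors, Nlrp1a was not analysed here, and Nlrp6, Gsdmc3 and Pjvk were below the filter. Start regions from RefSeq (GRCm38.p6) matched 7 of the 10 genes. A gene of the regulator list is not reported here and was left out of its counts.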

Additional observations from a re-analysis of the deposited data

How the results depend on the processing

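The 46 differences and 6 counts of called genes were recomputed under up to 22 alternatives. Of 974 values of the differences, 859 kept direction and side of the threshold, 63 lost and 38 gained it and 14 reversed. Of 132 values of the counts, 19 moved by more than 1.5 times. The number of the 10 genes called, 6 in DNCB against scMSC, ranged from 2 to 7 when 1 library was left out and was 3 with only the 6 libraries compared and 8 by DESeq2. For DNCB against scivMSC (3) it ranged from 0 to 4, and for scMSC against control (3) from 1 to 3, with 1 by limma on log2(FPKM + 1) and 1 with only the 6 libraries. For scivMSC against control (1) it ranged from 0 to 1, with 0 by limma on log2(FPKM + 1) and 0 with a mean of at least 1 FPKM, which drops Gsdma2.

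Reversed differences were small or concerned the summed trio. Nlrp3 in scivMSC against control ranged from -0.30 to 0.79 without 1 library, and Pycard from -0.24 to 0.15, with -0.0022 in DESeq2. Casp4 in DNCB against control was 0.11 with library size alone, 0.12 and 0.092 by limma with pseudocounts of 0.1 and 1. Gsdma2 in DNCB against control ranged from -0.23 to 0.48, and -0.60 with the Gsdma genes summed. The sum took Gsdma3 to 1.25 in scMSC and 0.61 in scivMSC against control, because Gsdma dominates it. With library size alone the median of all genes was 0.20 in DNCB, 0.16 in scMSC and 0.21 in scivMSC against control. In the main fit it was 0.02, 0 and 0.04.

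The replicate numbers of the titles did not pair the samples: over 18 pairs the correlation of deviations ran from -0.21 to 0.15, and 1 was over 0.1. With the replicate block, 1 gene remained called in DNCB against scivMSC, since Nlrp3 (adjusted p = 0.0634) and Gsdma2 (0.0563) were lost, as was Gsdma in scMSC against control (0.0624). The causes of the lost and gained calls were not tested. With 3 mice a group, many adjusted p-values lay near the threshold, and low counts limit Nlrc4, Gsdma2 and, outside DNCB skin, Nlrp3.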
